A study of Mus musculus with 12 samples.

Results

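The genes described here encode the nuclear subunits of respiratory complexes I, II and III of the mouse, together with some of their assembly factors. They were taken from the deposited array table as the probe sets annotated with exactly 1 gene symbol that starts with Ndufa, Ndufb, Ndufc, Ndufs, Ndufv or Uqcr, or that is Sdhb, Sdhc or Sdhd, with Ndufs6 left out. The rule uses names only and no measured value, but it was written with earlier results of these data known. It found 61 probe sets for 53 genes, of 19938 genes that have a probe set of their own, and a gene with several was represented by the probe set with the highest mean over the 12 arrays. By role the 53 genes were 6 catalytic core subunits of complex I, 8 accessory subunits of its peripheral arm, 19 accessory subunits of its membrane arm, 7 assembly factors (Ndufaf1 to Ndufaf7), 3 subunits of complex II and 8 of complex III, and the pair Ndufa4 and Ndufa4l2. The name of the group therefore does not hold for all of them: assembly factors are no subunits, Ndufa4 is now counted to complex IV, and Ndufa4l2 is its paralog.

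The study asked whether deleting either of the essential parts of telomerase changes gene expression in mouse embryonic fibroblasts, which are connective tissue cells grown from whole embryos. Cells came from male C57BL/6J embryos of stage E12.5-14.5 and were harvested at passage 5. There were 4 groups of 3 cultures, each measured on 1 Affymetrix Mouse Gene 1.0 ST array: first-generation (G1) knockouts of mTERT, the reverse transcriptase (mTERT KO), their wild types (mTERT WT), first-generation knockouts of mTR, the RNA template (mTR KO), and their wild types (mTR WT). Each wild-type and knockout set was made from littermates. Cultures of one number in the mTERT line also varied together on the arrays, so their differences are given pair by pair as well. On the mTR side cultures of one number did not vary together over the table as a whole. How far the 53 genes did is given with the variance by number. In both lines the standard errors, intervals and p-values come from a fit of group means without a pair term, unless a block is named. No other allele or treatment is named in the labels.

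Complex I takes electrons from NADH, complex II takes them from succinate, and both pass them through ubiquinone to complex III, which hands them to cytochrome c; complexes I and III pump protons as they do so. Complex I has a peripheral arm that holds the flavin and iron-sulfur clusters and a membrane arm that pumps, and its accessory subunits surround a core shared with bacteria. Fibroblasts in culture draw on both glycolysis and respiration. The genes are nuclear, and factors such as NRF1, the ETS protein GABPA, the estrogen-related receptors and YY1 are known to act at the promoters of many of them.

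The promoters are shown first, because a shared control of these genes would be read from such sequences. RefSeq promoter windows (GRCm38.p6, 250 bases before to 50 after the start) were found for 44 of the 53 genes; there was no entry for Ndufa2, Ndufa4l2, Ndufaf6, Ndufb9, Ndufs1, Sdhc, Uqcrb, Uqcrc2 and Uqcrq. Searched on both strands, the NRF1 core GCGCATGC stood in the windows of 8 of the 44 genes (18.2%), against 3.05% of all 27025 genes with a window and 3.94% of the 17492 protein-coding ones. The YY1 core AAGATGGC stood in 6 (13.6%, against 3.19% of all genes), the ETS core CCGGAAGT in 3 (6.82%, against 4.31%), the ERR element TCAAGGTCA in 1, Sdhd (2.27%, against 0.466%), and the CCAAT box in 14 (31.8%, against 41.1%). Among the protein-coding genes these shares were 3.57% for YY1, 5.69% for ETS, 0.377% for ERR and 42.3% for CCAAT. At least 1 of the first 4 motifs was found in 17 genes and none of the 5 in 16. These are matches of letters, not measured binding, and the searched motifs do not overlap each other in letters. As examples, the promoters of 5 genes with an NRF1 or ETS match that begins before the start are printed here 5′ to 3′ on the strand of the gene, with the NRF1 and ETS matches in capitals and CCAAT boxes left in lower case; Ndufaf4 and Ndufa6, which also have such an NRF1 match, are not printed. Uqcr11, a small subunit of complex III, was the only gene with 2 of the first 4 motifs (chr10:80406818-80406937, minus strand, from −116 to 3 with the first transcribed base counted as 0): an ETS match and an NRF1 match across the start. Uqcrh, the hinge protein of complex III, had an ETS match (chr4:116075071-116075190, minus strand). Sdhb, the iron-sulfur subunit of complex II, had an NRF1 match (chr4:140961151-140961270, plus strand), as had the complex I membrane-arm subunits Ndufa11 (chr17:56717642-56717761, plus strand) and Ndufa8 (chr2:36049339-36049458, minus strand); these last 4 windows run from −120 to −1.
Uqcr11: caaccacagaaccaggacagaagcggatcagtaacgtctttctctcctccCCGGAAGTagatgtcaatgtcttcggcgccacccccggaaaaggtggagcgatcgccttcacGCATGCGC
Uqcrh: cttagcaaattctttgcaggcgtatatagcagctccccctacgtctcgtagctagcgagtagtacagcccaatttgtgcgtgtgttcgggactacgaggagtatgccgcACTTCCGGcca
Sdhb: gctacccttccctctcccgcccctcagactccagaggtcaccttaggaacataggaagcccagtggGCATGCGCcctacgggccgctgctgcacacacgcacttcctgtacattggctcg
Ndufa11: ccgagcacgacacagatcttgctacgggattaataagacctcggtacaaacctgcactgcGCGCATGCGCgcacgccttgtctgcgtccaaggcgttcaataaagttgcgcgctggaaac
Ndufa8: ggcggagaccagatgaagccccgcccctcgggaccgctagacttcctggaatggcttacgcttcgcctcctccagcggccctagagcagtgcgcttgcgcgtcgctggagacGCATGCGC

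The labels were checked with Tert itself, which read 5.72, 5.74 and 5.51 in the mTERT wild types against 4.99, 4.83 and 4.75 in their knockouts, a difference of −0.79 ± 0.08 (log2, ± standard error of the limma fit, adjusted p = 0.0352). The probe set of Terc, the mTR gene, lay at or below 4.94 in all 12 cultures and so does not check the mTR label. A background level was set from 1035 probe sets of olfactory receptors, at their 95th percentile, 4.93 to 5.09 by array; 52 of the 53 genes exceeded it in all 12 arrays, and Ndufa4l2 did not. All 14 fibroblast markers were above background in all arrays, as were 13 of 14 macrophage markers, 4 of 8 skeletal muscle, 4 of 6 neural and 2 of 8 epithelial markers, and none of 6 endothelial and 4 erythroid ones. Signals below are the deposited log2 values, given in the order of cultures 1 to 3 of a group. Probe sets differ in their response, so a ranking of genes by signal does not rank their amounts of RNA.

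In the mTERT knockouts these genes were measured at nearly the levels of their wild types. Of the 53, 24 lay higher and 29 lower (54.7%, against 49.4% of all 28853 probe sets), with a median difference of −0.01 (0.00 over all probe sets) and a range from −0.13 to 0.16. None passed an adjusted p of 0.05 in limma (0.00347% of all probe sets, which is Tert alone), and none reached an unadjusted p of 0.05 (1.92% of all probe sets). That fit holds no pair term. With a block for the mTERT pairs alone, Ndufs8 had an unadjusted p under 0.05 in limma (2.36% of all probe sets), but not with blocks in both lines. For 52 of the 53 the 95% interval of the difference lay within ±0.5 on the log2 scale, the exception being Ndufa4l2. In no gene were the 2 groups of 3 cultures apart without overlap (5.97% of all probe sets). In RNA from whole cultures, fewer cells of a type and less RNA per cell cannot be told apart.

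**Figure D1:**
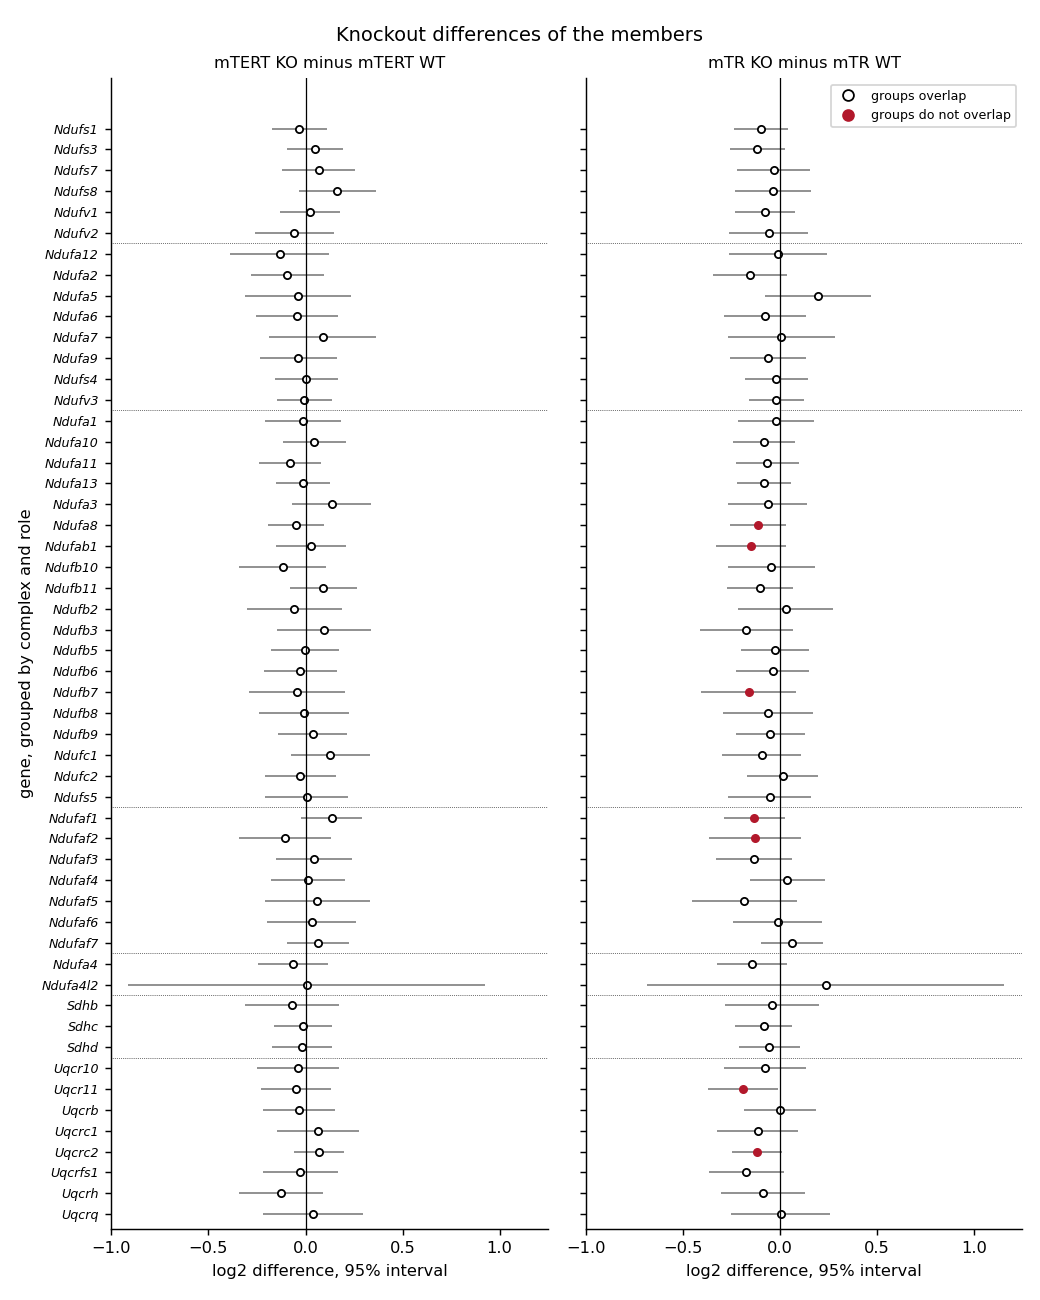
Log2 differences between knockout and wild type (x axis) of the 53 genes (y axis, grouped from top to bottom as core, peripheral arm, membrane arm, assembly factors, Ndufa4 pair, complex II and complex III); points are limma estimates, lines 95% intervals, and filled points mark genes whose groups of 3 cultures do not overlap. On the mTERT side the points scatter on both sides of 0 with a median of −0.01; in the mTR line 44 of 53 lie below 0 and 7 are filled.

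Among the 6 core subunits of complex I, which include the carriers of the flavin and the iron-sulfur clusters, 4 lay higher and 2 lower in the mTERT knockouts. Ndufs8, an iron-sulfur subunit, had the widest difference of all 53 genes in that direction. It read 7.46, 7.27 and 7.42 in the mTERT wild types against 7.54, 7.39 and 7.72 in their knockouts. Each knockout was above the wild type of its number, by 0.08, 0.12 and 0.29, but knockout 2 lay below wild types 1 and 3, so the groups overlapped. The difference was 0.16 ± 0.09 (95% interval −0.03 to 0.36, limma adjusted p = 1). Across the mTR groups the same gene read 7.47, 7.43 and 7.31 in wild types and 7.34, 7.33 and 7.44 in knockouts, a difference of −0.04 ± 0.09.

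In the mTR line all 6 core subunits lay lower in the knockouts, by −0.11 to −0.03. Ndufs3, which carries no cofactor and joins the core modules, read 9.60, 9.71 and 9.63 in the mTR wild types against 9.51, 9.49 and 9.61 in their knockouts. Only knockout 3 reached into the range of the wild types, and the difference was −0.11 ± 0.06 (95% interval −0.26 to 0.03). Ndufs1, the largest iron-sulfur subunit, read 9.55, 9.69 and 9.53 in the mTR wild types against 9.46, 9.55 and 9.46 in their knockouts (−0.10 ± 0.06). Ndufv1, which binds the flavin, differed by −0.07 ± 0.07 there and by 0.02 ± 0.07 in the mTERT line.

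The 8 accessory subunits of the peripheral arm gave the smallest median in the mTR line, −0.02, with 6 lower and 2 higher, and −0.04 in the mTERT line, with the same split. Ndufa5, one of the 2 higher ones, lay furthest from 0 among these 8. Its signal was 6.89, 6.75 and 7.14 in the mTR wild types against 7.28, 6.99 and 7.09 in their knockouts. Wild type 3 lay above knockouts 2 and 3, and the difference of 0.20 ± 0.12 had an interval from −0.08 to 0.47. Within the mTERT line Ndufa5 read 7.09, 6.93 and 7.08 in wild types and 6.99, 6.80 and 7.20 in knockouts (−0.04 ± 0.12).

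Ndufa12 showed the lowest value of the mTERT comparison. It read 8.20, 8.16 and 8.45 in the mTERT wild types against 8.31, 7.91 and 8.19 in their knockouts. Knockout 1 was above the wild type of its number and knockouts 2 and 3 below theirs, and the difference was −0.13 ± 0.12 (95% interval −0.39 to 0.12). Ndufa2 lay lower in both lines: by −0.09 ± 0.09 in the mTERT line, where wild types read 7.69, 7.59 and 7.72 and knockouts 7.52, 7.48 and 7.72, and by −0.15 ± 0.09 in the mTR line (7.78, 7.87 and 7.66 against 7.73, 7.52 and 7.59). In both lines its groups overlapped.

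Of the 19 accessory subunits of the membrane arm, 8 lay higher and 11 lower in the mTERT knockouts (median −0.01), and 2 higher and 17 lower in the mTR knockouts (median −0.06). For Ndufab1, the mitochondrial acyl carrier protein that is also a subunit of complex I, the mTR wild types gave 8.44, 8.61 and 8.44 and the knockouts 8.34, 8.37 and 8.34. All 3 knockouts lay below all 3 wild types, with a difference of −0.15 ± 0.08 (95% interval −0.33 to 0.03, limma adjusted p = 0.84). The same 6 values in the mTERT line were 8.31, 8.38 and 8.53 in wild types and 8.46, 8.30 and 8.55 in knockouts, which overlapped (0.03 ± 0.08). Ndufa8, of the twin-cysteine proteins of the intermembrane space, read 8.78, 8.82 and 8.81 in the mTR wild types against 8.67, 8.72 and 8.69 in their knockouts. These groups were also apart, by −0.11 ± 0.07.

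Ndufb7, another twin-cysteine subunit, was apart in the mTR line too, but by a narrow margin: wild types read 8.27, 8.41 and 8.25 and knockouts 7.98, 8.23 and 8.24. Its difference of −0.16 ± 0.11 rests largely on knockout 1. Ndufb2 stood on the other side, at 6.24, 6.46 and 6.22 in the mTR wild types against 6.37, 6.37 and 6.27 in their knockouts (0.03 ± 0.11). Its sign turned to −0.01 without mTR WT 3.

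In the mTERT line the widest differences among the membrane-arm subunits went both ways. Ndufa3 read 8.47, 8.51 and 8.73 in wild types and 8.71, 8.55 and 8.85 in knockouts, higher in every pair (by 0.24, 0.04 and 0.12), with a difference of 0.14 ± 0.09. Ndufc1 read 8.14, 8.24 and 8.38 in wild types and 8.41, 8.36 and 8.37 in knockouts (0.13 ± 0.09). Pair 3 did not share the direction of the other pairs for Ndufc1, since its difference was −0.01.

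Ndufb10 lay lower by −0.12 ± 0.10, from 6.55, 6.26 and 6.15 in wild types to 6.30, 6.11 and 6.19 in knockouts. Wild type 1 was the highest of all 12 cultures for this gene, and without it the difference shrank to 0.00. Ndufa11, whose promoter with the NRF1 match is printed above, read 8.21, 8.24 and 8.30 in wild types and 8.19, 8.03 and 8.28 in knockouts. It was lower in every pair, mostly through pair 2, with a difference of −0.08 ± 0.07.

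The 7 assembly factors, which help to build complex I and are not part of the finished enzyme, had a median of 0.04 in the mTERT knockouts (6 higher, 1 lower) and of −0.13 in the mTR knockouts (2 higher, 5 lower); the median of the difference between the effects, mTR minus mTERT, was −0.04. Ndufaf1, a factor for the membrane arm, read 7.43, 7.54 and 7.68 in the mTERT wild types against 7.69, 7.66 and 7.70 in their knockouts. The knockouts were higher in every pair, by 0.26, 0.12 and 0.02, and all 3 were alike, so that the difference of 0.13 ± 0.07 (95% interval −0.02 to 0.29) came from the low wild types 1 and 2. The mTR readings were 7.69, 7.64 and 7.62 in wild types and 7.48, 7.48 and 7.60 in knockouts. Here the groups were apart in the opposite direction (−0.13 ± 0.07, 95% interval −0.29 to 0.02).

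Ndufaf2, another assembly factor of complex I, was apart as well in the mTR line, at 7.33, 7.54 and 7.39 in wild types and 7.33, 7.24 and 7.31 in knockouts. The lowest wild type and the highest knockout were equal to 2 decimals, and the difference was −0.13 ± 0.11. Ndufaf7, a methyltransferase that acts on the core, lay higher in both lines (0.07 ± 0.07 and 0.06 ± 0.07). Ndufaf4 differed by 0.04 ± 0.09 in the mTR line, where its sign turned to −0.02 without mTR KO 2. Ndufaf5 and Ndufaf6 had means nearer to the background level than any member but Ndufa4l2; in the mTR line they differed by −0.18 ± 0.12 and −0.01 ± 0.10.

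All 3 subunits of complex II measured here lay slightly lower in both knockouts. Sdhb read 8.20, 8.07 and 8.22 in the mTERT wild types against 8.16, 7.87 and 8.27 in their knockouts, and 8.01, 8.33 and 8.15 in the mTR wild types against 8.09, 8.22 and 8.06 in their knockouts. Its groups overlapped in both lines (−0.07 ± 0.11 and −0.04 ± 0.11). Sdhc, a membrane anchor that binds haem, differed by −0.01 ± 0.07 in the mTERT and by −0.08 ± 0.07 in the mTR line. Sdhd, the other anchor, differed by −0.02 ± 0.07 and −0.05 ± 0.07.

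Complex III had the lowest median of the complexes in the mTR line, −0.10, with 6 of 8 genes lower, and a median of −0.03 in the mTERT line, with 5 of 8 lower. Uqcr11 read 6.32, 6.59 and 6.47 in the mTR wild types against 6.25, 6.24 and 6.31 in their knockouts. All knockouts lay below all wild types, the closest being wild type 1 and knockout 3. The difference of −0.19 ± 0.08 (95% interval −0.37 to −0.01, limma adjusted p = 0.839) was the only one of the 53 with an unadjusted p under 0.05, where 3.59% of all probe sets had one in that direction. It no longer had one when mTR WT 2, mTR WT 3, mTR KO 1, mTR KO 2 or mTERT WT 3 was left out, after quantile normalization, with a trended and robust variance, or in fits of the 6 mTR arrays with or without a block. On the mTERT side the gene read 6.42, 6.32 and 6.39 in wild types and 6.24, 6.28 and 6.47 in knockouts (−0.05 ± 0.08).

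Uqcrc2, a core protein of complex III and the gene with the smallest spread within groups (SD 0.0469), read 10.08, 10.09 and 10.06 in the mTR wild types against 9.96, 9.90 and 10.01 in their knockouts. The groups were apart, by −0.12 ± 0.06 (95% interval −0.25 to 0.01). Within the mTERT line it read 9.94, 9.92 and 10.04 in wild types and 10.00, 10.05 and 10.06 in knockouts, higher in every pair (0.07 ± 0.06). For Uqcrfs1, the Rieske iron-sulfur protein, the mTR wild types gave 7.37, 7.56 and 7.51 and the knockouts 7.23, 7.30 and 7.39. Only knockout 3 reached wild type 1, and the difference was −0.17 ± 0.09 (95% interval −0.37 to 0.02). Uqcrh was lower in every mTERT pair, at 10.04, 9.88 and 10.16 in wild types and 9.82, 9.84 and 10.03 in knockouts (−0.12 ± 0.10).

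**Figure D2:**
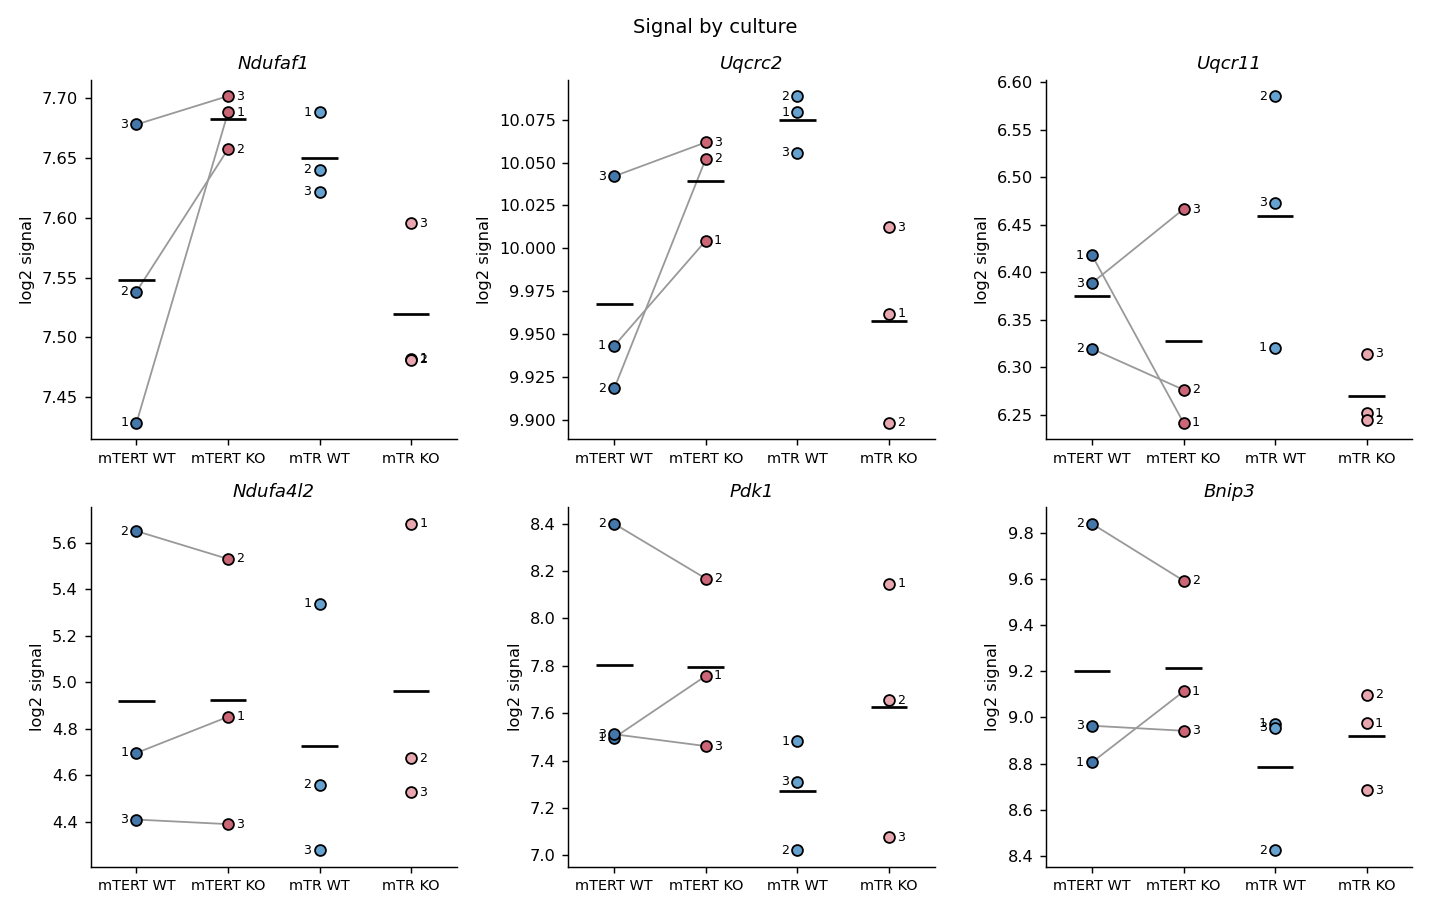
Log2 signal (y axis) of 6 genes in each culture of the 4 groups (x axis), with culture numbers beside the points and group means as bars. Grey lines join the mTERT cultures of the same number. Each panel has its own scale, which does not start at 0. Ndufaf1 and Uqcrc2 were higher in every mTERT pair and apart on the low side in the mTR knockouts, while Ndufa4l2, Pdk1 and Bnip3 were highest in pair 2 of the mTERT line.

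Over all 53 genes the mTR comparison was one-sided, with small differences. In the knockouts 44 genes lay lower and 9 higher (83% lower, against 49.7% of all probe sets and 52.2% of the 17587 above background), with a median of −0.06 where all probe sets had 0.00 and those above background −0.01. The range ran from −0.19 to 0.24, and the standard error of a single gene was 0.09 in the median. No gene passed an adjusted p of 0.05 in limma (0% of all probe sets did; lowest adjusted p of a member 0.839), and 52 of 53 intervals lay within ±0.5. In 7 genes all knockouts lay below all wild types (6.07% of all probe sets), namely Ndufa8, Ndufab1, Ndufaf1, Ndufaf2, Ndufb7, Uqcr11 and Uqcrc2, and in none above (5.33%). The genes were read from the same 12 arrays and varied together, so the count of 44 does not stand for as many separate observations.

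The mean over the 52 genes above background shows the same one-sidedness by culture. It was 8.24, 8.28 and 8.21 in the mTR wild types against 8.17, 8.16 and 8.21 in their knockouts. Knockout 3 came within 0.01 of wild type 3, and the other knockouts lay below all wild types. The mTERT line covered a wider range with no order by genotype, at 8.21, 8.15 and 8.26 in wild types and 8.23, 8.11 and 8.29 in knockouts. Hence both mTR groups lay within the range of the mTERT cultures.

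Macrophage markers moved between the mTR groups as well, in the other direction. All 14 were higher in the mTR knockouts, with a median of 0.75, and their mean log2 signal was 6.57, 8.11 and 8.54 in the mTR wild types against 9.37, 8.68 and 7.39 in their knockouts. The groups overlapped. Knockouts 1 and 2, the mTR cultures with the highest marker means, had the lowest means of respiratory genes, and knockout 3, with a marker mean below those of wild types 2 and 3, had a respiratory mean near that of wild type 3. Wild type 1 had the lowest marker mean and the second highest respiratory mean of the mTR line. Wild type 2 had the highest respiratory mean of that line, 8.28, with a marker mean above those of wild type 1 and knockout 3. In the mTERT line the marker means were 7.60, 8.87 and 9.14 in wild types and 7.31, 9.05 and 8.82 in knockouts. There both cultures 2 joined high marker means to the lowest respiratory means. Both cultures 3 joined high marker means to the highest respiratory means. In neither line did the respiratory means keep a strict order, rising or falling, with the marker means. Summed on the linear scale the 14 markers ranged from 2665 to 10474 in mTR WT and from 5273 to 16707 in mTR KO cultures, and from 5310 to 15528 in mTERT WT and 4590 to 12992 in mTERT KO cultures. Their part in the mTR difference of the respiratory genes was not tested.

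**Figure D3:**
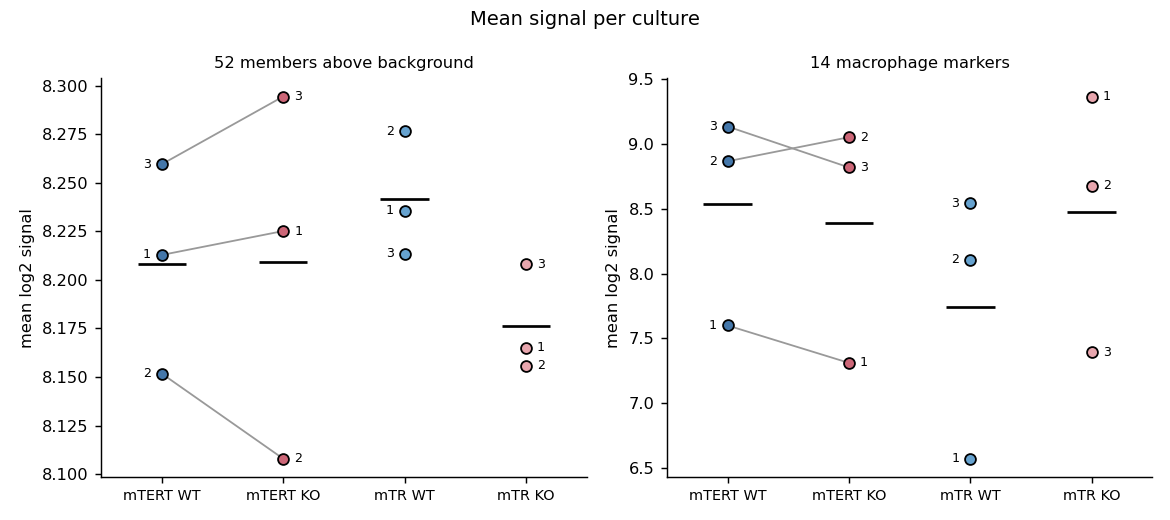
Mean log2 signal (y axis) of the 52 respiratory genes above background (left) and of 14 macrophage markers (right) in each culture of the 4 groups (x axis); bars are group means and grey lines join the mTERT pairs, and the y axes differ and do not start at 0. The respiratory means of the mTR knockouts lie at or below those of their wild types, within a span of less than 0.2 over all cultures, while the macrophage means span over 2 log2 units.

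Pair number took a larger share of the variance among the mTERT cultures than genotype, in these genes as over the whole table. For each gene the sum of squares of the 6 mTERT arrays was divided into a part by pair number and a part by genotype. There are more numbers than genotypes, so the number would take the larger share on average even without any effect. The shares are therefore to be read only beside those of all probe sets. The median share was 66.5% for the number and 5.54% for genotype, and the number took the larger share in 48 of 53 genes. Over all probe sets the medians were 55.6% and 7.53%, with the number ahead in 23628 of 28853, and over those above background 65.9% and 6.17%, with the number ahead in 15281 of 17587, so the split was close to that of other measured genes. In the mTR line the medians of the 53 were 36.6% for the number and 23.9% for genotype (36.2% and 14.7% over all probe sets). There the deviations of the 53 genes from the group means correlated at 0.356 to 0.648 between cultures of the same number, but at 0.030 to 0.247 once Ndufa4l2 was left out. In the mTERT line these correlations fell likewise, from 0.246 to 0.712 with Ndufa4l2 to 0.136 to 0.282 without it. Between cultures of different numbers, without Ndufa4l2, they were −0.211 to 0.037 in the mTERT line and −0.168 to 0.100 in the mTR line. Pair 3 had the highest mean of the pair in 39 genes and pair 2 the lowest in 38. Culture mTERT KO 2 was the lowest of all 12 cultures in 18 genes, while mTERT KO 3 and mTR WT 2 were each the highest in 15.

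The 3 mTERT pairs gave different directions of the knockout difference. Its median over the 53 genes was 0.00 in pair 1, −0.06 in pair 2 and 0.02 in pair 3, with 28, 16 and 32 genes higher in the knockout. Only 5 genes were higher in all 3 pairs (Ndufa3, Ndufaf1, Ndufaf5, Ndufs8 and Uqcrc2) and 6 were lower in all 3 (Ndufa11, Ndufa4, Ndufa8, Ndufaf2, Ndufc2 and Uqcrh), where 25.1% of all probe sets shared a sign in all 3 pairs. The balance of directions rested on single cultures. Without mTERT KO 2 the number of genes lower in the knockouts went from 29 to 16 and the median to 0.05, and without mTERT KO 3 the number went to 39 and the median to −0.04.

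**Figure D4:**
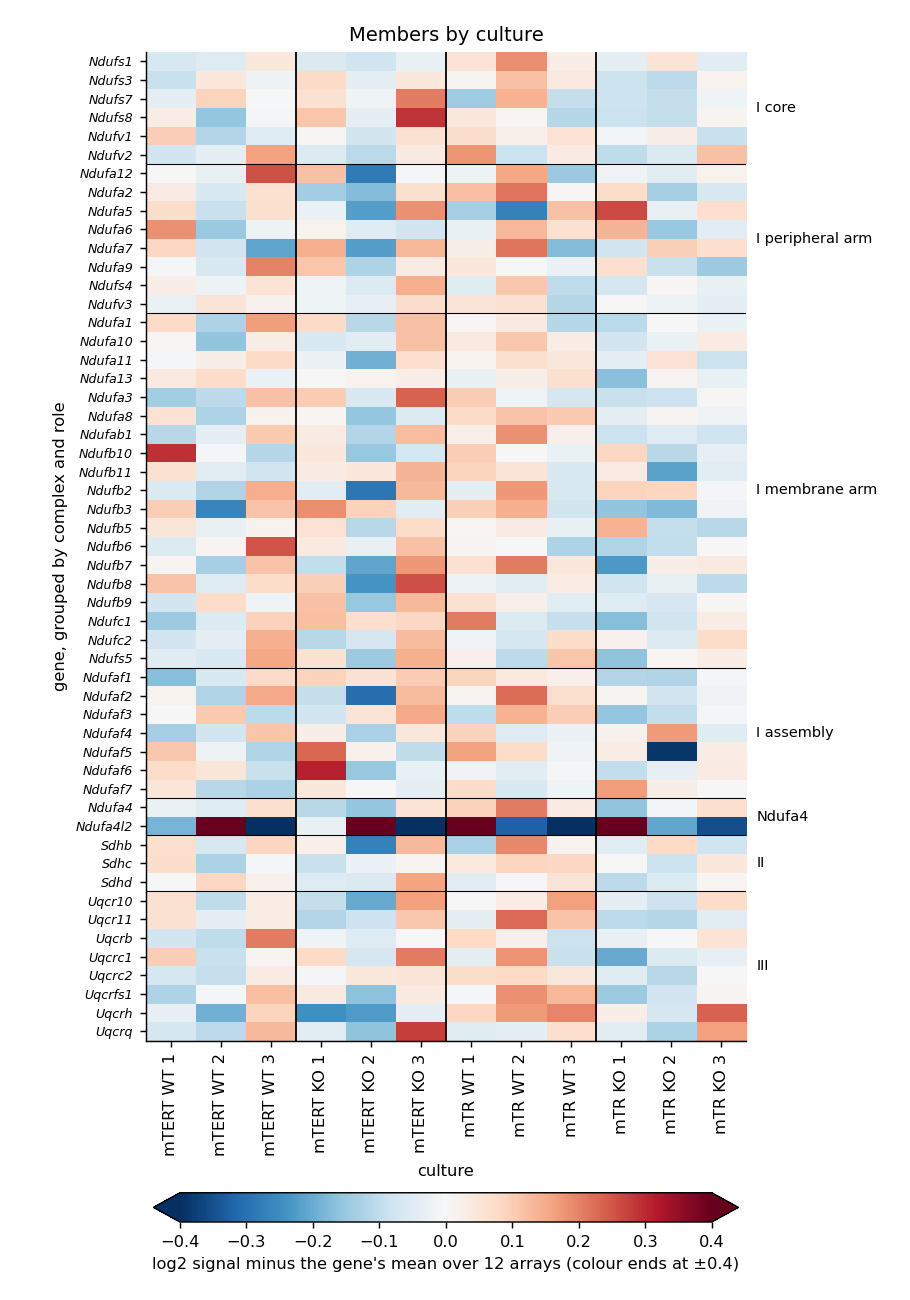
Log2 signal of each of the 53 genes (rows, grouped by complex and role) in each of the 12 cultures (columns) as the deviation from the gene's mean over all cultures; red is above and blue below that mean, and the colour scale ends at ±0.4, which Ndufa4l2 exceeds. Culture mTERT KO 2 is mostly blue and mTERT KO 3 mostly red, and the mTR KO cultures are paler and bluer than mTR WT 2.

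Ndufa4l2 stood apart from the other 52. It is the paralog of the complex IV subunit Ndufa4, is known to be induced by hypoxia through HIF1, and has been described to lower complex I activity. Its signal was 4.70, 5.65 and 4.41 in the mTERT wild types against 4.85, 5.53 and 4.39 in their knockouts. It exceeded the background level only in pair 2, and the number took 98.7% of its sum of squares in the mTERT line. The mTR readings were 5.34, 4.56 and 4.28 in wild types and 5.68, 4.67 and 4.53 in knockouts, above background in culture 1 of each group. At each number the mTR knockout read above the wild type of that number, and the number took 93.5% of the sum of squares in that line. With the number as a replicate block, in both lines or in the 6 mTR arrays, this difference had an unadjusted p under 0.05, as 8.49% and 4.86% of all probe sets had in either direction, and limma adjusted p = 0.538 and 0.866. Compared as groups, with an SD within groups of 0.602, neither difference can be placed closely: 0.01 ± 0.42 in the mTERT line and 0.24 ± 0.42 (95% interval −0.69 to 1.16) in the mTR line, where it turned to −0.12 without mTR KO 1.

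Of 12 genes known to respond to hypoxia, which were listed after the values of Ndufa4l2 had been seen and so support nothing, 11 were measured. Pdk1, a kinase that holds pyruvate back from the citrate cycle, read 7.50, 8.40 and 7.51 in the mTERT wild types against 7.76, 8.17 and 7.46 in their knockouts. Bnip3, a mitophagy receptor, read 8.81, 9.84 and 8.96 in the mTERT wild types against 9.11, 9.59 and 8.94 in their knockouts. Both were highest in pair 2, as Ndufa4l2 was, and both were picked from the 11 after their values were seen. The mean over all 11 was 7.83, 8.41 and 7.88 in the mTERT wild types and 7.91, 8.24 and 7.85 in their knockouts. In the mTR line it was 7.89, 7.66 and 7.84 in wild types and 8.01, 7.92 and 7.71 in knockouts. For the mTR cultures Pdk1 read 7.48, 7.02 and 7.31 in wild types and 8.15, 7.65 and 7.08 in knockouts, and Bnip3 8.97, 8.42 and 8.96 in wild types and 8.98, 9.10 and 8.68 in knockouts. Culture 1 was again the highest of its group for Pdk1, but for Bnip3 knockout 2 lay above knockout 1.

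Ndufa4 itself, in contrast, was high above background in every culture, at 10.52, 10.49 and 10.61 in mTERT WT, 10.43, 10.39 and 10.60 in mTERT KO, 10.63, 10.75 and 10.57 in the mTR wild types against 10.39, 10.53 and 10.61 in their knockouts. It was lower in the knockouts by −0.07 ± 0.08 in the mTERT line and by −0.14 ± 0.08 in the mTR line (95% interval −0.32 to 0.04), and its groups overlapped in both. Uqcrb and Ndufb6, also far above background, differed by 0.00 ± 0.08 and −0.03 ± 0.09 in the mTR line.

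The difference between the knockout effects was tested directly as mTR minus mTERT. It was below 0 in 41 genes and above 0 in 12 (77.4% below, against 50.9% of all probe sets), with a median of −0.06. No gene passed an adjusted p of 0.05 in limma (0% of all probe sets). Ndufaf1 (−0.26 ± 0.10, 95% interval −0.48 to −0.05) and Uqcrc2 (−0.19 ± 0.08, 95% interval −0.37 to −0.01) had an unadjusted p under 0.05, as 1.9% of all probe sets had in that direction. With each array left out in turn, Ndufaf1 lost this only without mTERT WT 1, but Uqcrc2 kept it only without mTERT WT 3, mTERT KO 1 or mTR KO 3. Ndufaf1 also lost it after quantile normalization, and Uqcrc2 with the replicate number as a block in both lines. Next were Ndufs3 at −0.16 ± 0.09 and, on the other side, Ndufa5 (0.23 ± 0.18), Ndufa12 (0.13 ± 0.16) and Ndufb2 (0.09 ± 0.16), the last of which turned to −0.02 without mTERT KO 2.

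The wild types of the 2 lines, which share strain, sex and passage, lay apart by about as much as a knockout from its wild type. mTERT WT minus mTR WT was negative in 34 of 53 genes (64.2%, against 47.8% of all probe sets), with a median of −0.04 and a range from −0.19 to 0.19. No member passed an adjusted p of 0.05 in limma, where 5 probe sets of the whole table did (0.0173%). Uqcrh gave 10.04, 9.88 and 10.16 in mTERT WT but 10.15, 10.24 and 10.26 in mTR WT cultures, a difference of −0.19 ± 0.10 (95% interval −0.41 to 0.02). Ndufa8 and Uqcrc2 were the genes whose wild-type groups did not overlap, both lower in mTERT WT (7.14% of all probe sets in that direction), by −0.12 ± 0.07 and −0.11 ± 0.06. Both were also among the 7 genes apart in the mTR line, and the comparisons share the mTR WT arrays. Ndufs1 differed by −0.11 ± 0.06, and Ndufb6, Ndufa5 and Ndufa1 lay higher in mTERT WT by 0.11 ± 0.09, 0.11 ± 0.12 and 0.06 ± 0.09.

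For 7 genes the table holds further probe sets, 8 in all, which give a second reading. Their differences had the sign of the first probe set in 5 of 8 cases in the mTERT line and in 7 of 8 in the mTR line. For Ndufab1 the second probe set gave −0.12 in the mTR line, and for Ndufs3 it gave −0.11, close to the first. For Uqcr11 it gave −0.15. Over the 12 arrays the further probe sets correlated with the first at 0.392 (Uqcr11) to 0.931 (Ndufab1), given here as a description. A probe set may also read transcripts of near-identical copies of these genes, so the values of genes with several probe sets are less certain.

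A pair of subunits of the same complexes that stand outside the rule lay lower in the mTERT knockouts. Ndufs6, a zinc-binding accessory subunit of complex I, and Sdha, the flavin subunit of complex II, lie on the same chromosome as Tert. By their promoter windows, Ndufaf2, Ndufs4 and Uqcrfs1 of the 53 genes lie on that chromosome too. These differed by −0.10 ± 0.11, 0.00 ± 0.07 and −0.03 ± 0.09 in the mTERT line, with overlapping groups. Ndufs6 read 6.84, 6.85 and 6.89 in the mTERT wild types against 6.64, 6.64 and 6.46 in their knockouts (−0.28 ± 0.06, limma adjusted p = 1). Sdha read 10.14, 10.18 and 10.19 in the mTERT wild types against 10.07, 9.80 and 9.83 in their knockouts (−0.27 ± 0.08). Both sets of groups were apart, as were 5.97% of all probe sets in either direction. None of the 53 was apart, but Ndufs6 carries a prefix of the rule and was left out by name. The rule was written with earlier results of these data known, so this contrast supports nothing. Among the mTR cultures Sdha differed by 0.05 ± 0.08, whereas Ndufs6 was apart again, at 6.88, 6.77 and 6.79 in wild types and 6.61, 6.61 and 6.64 in knockouts (−0.19 ± 0.06).

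The electron carriers and complexes next in the chain were described with lists. Cyc1, the cytochrome c1 of complex III whose symbol lies outside the rule, differed by −0.02 ± 0.08 in the mTERT and −0.12 ± 0.08 in the mTR line, and Cycs, cytochrome c, by 0.00 ± 0.17 and −0.04 ± 0.17. With these 2, 15 of 16 listed genes of complex IV and cytochrome c were measured; 7 lay higher and 8 lower in each line, with medians of −0.01. Cox6a1 had the lowest value in the mTERT line (−0.23 ± 0.11) and Cox6c the highest (0.15 ± 0.08). In the mTR line Cox6a2 (0.27 ± 0.14) and Cox7a1 (0.25 ± 0.12), the muscle forms of their subunits, were highest. ND3, the only subunit of complex I encoded in mitochondrial DNA that was measured, differed by 0.01 ± 0.08 and −0.01 ± 0.08, and COX2, also encoded there, by −0.04 ± 0.06 and 0.12 ± 0.06.

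ATP synthase uses the proton gradient built by these complexes. Across the mTR groups 13 of its 15 measured genes (16 listed) lay lower and 2 higher, with a median of −0.05. On the low side 4 were apart (Atp5b, Atp5g1, Atp5g3 and Atp5k), as were 6.07% of all probe sets. Atp5b, the catalytic beta subunit, read 11.41, 11.42 and 11.42 in the mTR wild types against 11.17, 11.25 and 11.40 in their knockouts (−0.15 ± 0.07), and Atp5j, a coupling factor, differed by −0.13 ± 0.07. In the mTERT line 5 lay higher and 10 lower, with a median of −0.01; Atp5g2 differed by 0.07 ± 0.06 and Atp5k by −0.17 ± 0.15.

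The 17 assembly factors of complexes I to III outside the rule had a median of 0.02 in the mTERT line (11 higher, 6 lower) and of −0.07 in the mTR line (3 higher, 14 lower). Tmem186, which acts in the assembly of the membrane arm, read 6.36, 6.34 and 6.28 in the mTR wild types against 6.06, 5.91 and 6.15 in their knockouts. The groups were apart, by −0.29 ± 0.08, and they were also apart in the mTERT line, by −0.16 ± 0.08. Ecsit, another assembly factor of complex I, differed by −0.25 ± 0.11 in the mTR line, and Nubpl, which delivers iron-sulfur clusters to complex I, by 0.23 ± 0.11 in the mTERT line. None of the 17 passed an adjusted p of 0.05 in limma, where 2 were under 0.05 unadjusted in the mTR line (Tmem186 and Ecsit). Both were lower, as were 3.59% of all probe sets with an unadjusted limma p under 0.05.

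Of 13 citrate cycle enzymes 12 were measured. On the mTERT side 6 lay higher and 6 lower (median 0.01), with Suclg1 and Suclg2, subunits of succinyl-CoA ligase, at 0.13 ± 0.09 and 0.10 ± 0.10. Within the mTR line 3 lay higher and 9 lower (median −0.06), with Idh3g at −0.09 ± 0.06 and Suclg2 at 0.16 ± 0.10. Whether these lists differ from each other was not tested.

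**Figure D5:**
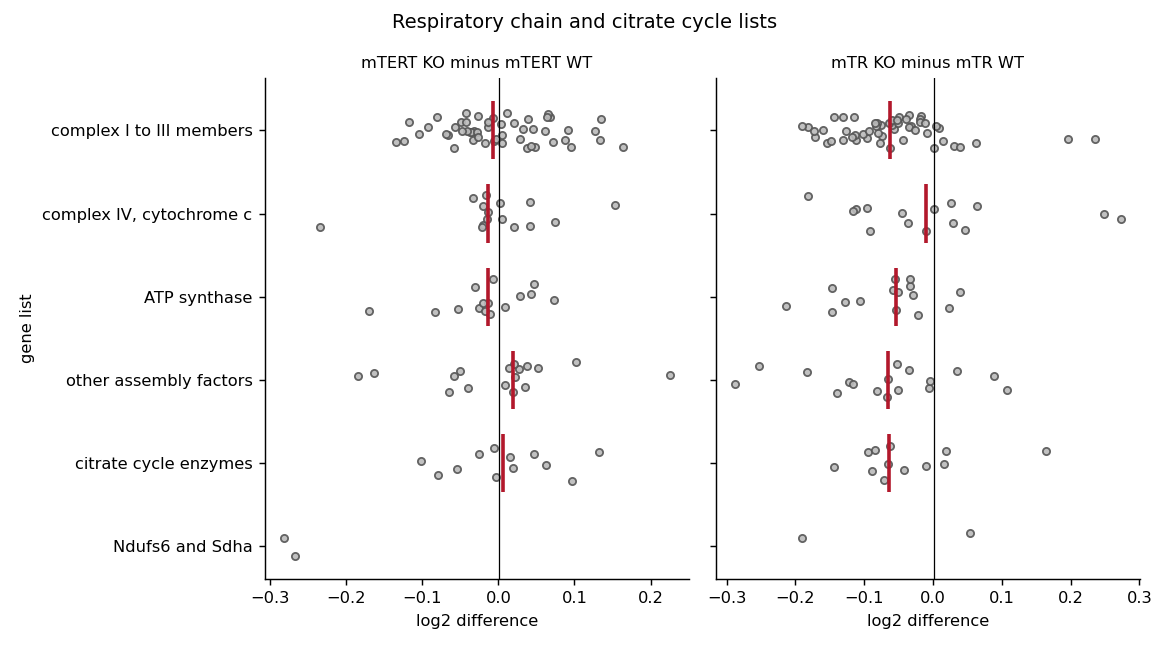
Log2 differences between knockout and wild type (x axis) of the genes of 6 lists (y axis; points are genes, red bars list medians for lists of more than 2 genes, and the vertical line is the median of all probe sets) in the mTERT line (left) and the mTR line (right). The medians lie within 0.02 of 0 in the mTERT line, where Ndufs6 and Sdha lie at −0.28 and −0.27, and between −0.07 and −0.01 in the mTR line.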

How the data were processed

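The authors deposited log2 summary signals for 28853 probe sets in 12 arrays. GCOS 1.4, Affymetrix Expression Console and PLIER are named, without a role, per the submitters' processing notes. Normalization and genome build are not given in the sources used here; that the scale is log2 was read from the values. Column quantiles differed by at most 0.0844 between arrays and array correlations ran from 0.984 to 0.997, so the values were used as they stood. Of the probe sets 21789 carried 1 gene symbol in the platform annotation, 1621 several and 5443 none; the 3 probe sets that listed several symbols of the gene families were left out. All 53 symbols were found unchanged in RefSeq (GRCm38.p6), which also gave the promoters.

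Samples were grouped by their titles, and all arrays entered the fit. limma 3.58.1 (R 4.3.3) estimated 4 group means with moderated variances (8 residual plus 3.14 prior degrees of freedom) and Benjamini-Hochberg adjustment over all probe sets at 5%. The number of arrays limits the precision. The fit was also run on simulated data with independent noise per probe set. That run had no effect of culture number and so does not show how the fit handles pairs. The 4 comparisons were both knockouts against their wild types, the difference of these effects, and the wild types of the lines. Plots came from matplotlib 3.10.9 (Python 3.11.15).

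Whether replicate numbers mark pairs was checked over the brighter probe sets. For mTERT cultures, deviations from the group mean correlated at 0.674 to 0.790 between cultures of the same number and at −0.525 to −0.184 otherwise, so the numbers were taken as pairs from the data; the design text names littermates.

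Genes were named by rule: among the 53, those with the 5 highest and 5 lowest moderated t per knockout comparison, with the 3 at either end of the remaining comparisons and of mean signal, the complex II genes, Tert, Ndufs6, Sdha, Cyc1, Cycs, and the 2 largest t of each pathway list. Genes named outside it, such as those whose groups did not overlap, the hypoxia genes, Terc, ND3 and COX2, were chosen after their values were seen. The genes, lists and rules were chosen with earlier results of these data known. Alternatives were replicate blocks, fits of 6 arrays, quantile normalization, median centring, removal of dim probe sets, a trended and robust variance, array weights, the dimmest probe set of a gene, the genes without Ndufa4l2 and the omission of each array.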

Additional observations from a re-analysis of the deposited data

How the results depend on the processing

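None of the 53 genes passed an adjusted p of 0.05 in any comparison under any alternative that was run, with limma throughout, and the direction of the median did not change outside the omission of single arrays. In the mTR comparison the genes lower in the knockouts numbered 42 to 47 over the other settings and 40 to 47 with each array left out (median −0.08 to −0.04), so its one-sidedness did not rest on 1 culture. In the mTERT comparison they numbered 28 to 32 and, with each array left out, 16 to 39 (median −0.04 to 0.05). With array weights 5 genes instead of 1 had an unadjusted p under 0.05 in the mTR comparison, while the share over all probe sets went from 5.82% to 11.8%; the cause was not tested. With the pairing as a replicate block, no call of a member changed, and Ndufs8 reached an unadjusted p under 0.05 in the mTERT comparison with the mTERT pairs as the only block (2.36% of all probe sets), not with blocks in both lines or in 6 arrays. The count over all probe sets was 1 in the mTERT comparison and became 0 with a replicate block in both lines, with a replicate block in the 6 arrays of the line, in 6 arrays without block and after quantile normalization. It was 0 to 2 with each array left out (0 to 3 in the mTR comparison). In the mTR line the numbers did not pair the cultures (correlations of −0.377 to 0.289 for the same number over the brighter probe sets), and their block called 0 probe sets. For the wild types the count of 5 became 1 in 6 arrays, 0 after quantile normalization, 0 with dim probe sets removed and 9 with array weights, and was 0 to 11 with each array left out. With single arrays left out, the sign turned for Ndufb2 (mTR comparison −0.013 without mTR WT 3, up to 0.11; difference of effects −0.021 without mTERT KO 2, up to 0.19), Ndufa4l2 (−0.12 without mTR KO 1, up to 0.54) and Ndufaf4 (−0.022 without mTR KO 2, 0.087 without mTR KO 3), in the mTR comparison unless stated.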
